A study of Mus musculus with 4 samples.

Results

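The transcripts described here encode the SR proteins, the hnRNPs and their closest partners in the splicing machinery, measured in satellite cells, the stem cells of skeletal muscle. Members were taken by a rule on gene symbols, set with earlier results of these data known. The rule took 49 of the 55487 gene identifiers in the deposited tables. They comprise 11 SR proteins (Srsf genes), 2 Tra2 proteins, 20 hnRNPs, 9 subunits of the SF3A and SF3B complexes, 3 U2AF subunits and 4 CLK kinases. Pseudogenes whose symbol ends in -ps were left out by the rule. Minced muscle of 2 mice was exposed, while the tissue was being digested, to a vivo-morpholino, an antisense oligomer coupled to a carrier that brings it into cells. The Numb exon 6 morpholino was designed to keep exon 6 out of Numb messenger RNA, and a control morpholino served as the comparison. Each mouse gave 1 library per morpholino, so 2 Numb exon 6 libraries were compared with 2 control libraries. All 4 libraries came from muscle stem cells with the genotype Tg:Pax7-nGFP, a transgene that marks Pax7-expressing nuclei with green fluorescent protein. The sources used here give neither the age nor the sex of the mice. The morpholino was applied before the cells were isolated, so other cells of the muscle met it as well. In RNA from many cells, fewer cells of a type and less RNA per cell cannot be told apart.

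SR proteins carry RNA recognition motifs and a tail rich in arginine and serine, and they bind exonic enhancers to favour inclusion of the exon. The hnRNPs coat nascent RNA and often act from silencer elements, so that the balance between the families sets many alternative exons. U2AF recognises the end of the intron, SF3A and SF3B are parts of the U2 particle that binds the branch point, and CLK kinases phosphorylate the SR tails. Many of these genes tune their own level through transcripts that keep an intron or hold a premature stop codon, which makes the mix of transcripts from each gene of interest beside its level. When satellite cells leave quiescence, introns held back in the nucleus are known to be spliced, and splicing factors take part in that step.

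The label of muscle stem cell was checked against markers. The 8 satellite cell and myogenic markers summed to 11104 and 11199 TPM (a share of the library scaled to transcript length) in the Numb exon 6 libraries of mouse 1 and mouse 2, against 9462 and 10206 TPM in the control libraries. None of them was at 0, and Pax7 stood at 50.9 and 59.7 TPM in the Numb exon 6 libraries against 37.0 and 51.4 TPM in the controls. The 11 leukocyte markers summed to 42.9 and 134 TPM with the Numb exon 6 morpholino and to 32.5 and 37.7 TPM with the control. The 4 glial markers summed to 95.3 and 127 TPM with the Numb exon 6 morpholino against 52.4 and 62.8 TPM with the control. Globin transcripts, which mark erythroid cells, reached 923 and 1724 TPM against 534 and 1525 TPM in the controls. Endothelial, fibro-adipogenic and myofibre markers (5 each) summed to 84.0 and 66.0, 673 and 599, and 137 and 147 TPM with the Numb exon 6 morpholino, against 61.4 and 58.9, 610 and 478, and 126 and 130 TPM with the control. The summed levels of all 7 marker lists were thus higher with the Numb exon 6 morpholino in both mice, and none of their markers was at 0 in all 4 libraries. Their part in the results on splicing factors was not tested. The estimated counts of the deposited table summed to 318663258 and 230431665 in the Numb exon 6 libraries and to 355411827 and 306485954 in the control libraries. Since these counts were derived from coverage, the totals are not numbers of fragments.

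Promoters of 3 members are shown because the results below turn on them: Clk4 was higher and Hnrnpab lower with the Numb exon 6 morpholino in both mice, and Srsf10 had a shift in mean transcript length of almost the same size in both. Each runs from 250 bases before to 50 bases after a transcription start given by RefSeq on GRCm38.p6, 5′ to 3′ on the strand of the gene. These starts need not be the outermost gene coordinates printed below, which come from GENCODE. Capitals mark matches, on either strand, to 6 motifs: CCAAT (the box bound by NF-Y), TGACGTCA (the cAMP response element), GGGCGG (the Sp1 box), CTCGCGAG (a palindrome), TATAAA and CGGAAG (an Ets core).
Clk4, chr11:51262864-51263163, plus strand: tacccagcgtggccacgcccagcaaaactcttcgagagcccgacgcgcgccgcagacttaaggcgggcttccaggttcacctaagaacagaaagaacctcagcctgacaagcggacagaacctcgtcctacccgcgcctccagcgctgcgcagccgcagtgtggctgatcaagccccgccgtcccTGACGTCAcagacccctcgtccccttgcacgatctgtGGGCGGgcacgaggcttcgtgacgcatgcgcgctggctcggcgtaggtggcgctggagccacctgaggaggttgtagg
Hnrnpab, chr11:51606832-51607131, minus strand: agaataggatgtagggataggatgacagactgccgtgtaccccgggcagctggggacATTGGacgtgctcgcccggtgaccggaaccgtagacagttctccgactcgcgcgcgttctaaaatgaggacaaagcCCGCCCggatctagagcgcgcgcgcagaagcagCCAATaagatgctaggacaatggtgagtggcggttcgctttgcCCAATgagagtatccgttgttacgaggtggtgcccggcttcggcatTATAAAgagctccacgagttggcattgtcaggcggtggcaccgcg
Srsf10, chr4:135855821-135856120, plus strand: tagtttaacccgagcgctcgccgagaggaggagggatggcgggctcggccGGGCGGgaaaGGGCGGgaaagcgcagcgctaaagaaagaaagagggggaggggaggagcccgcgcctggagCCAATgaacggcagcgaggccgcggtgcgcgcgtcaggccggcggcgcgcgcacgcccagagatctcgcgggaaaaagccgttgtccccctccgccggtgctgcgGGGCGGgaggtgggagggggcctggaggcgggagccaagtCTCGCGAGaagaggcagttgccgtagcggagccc
The Clk4 window holds 1 match to TGACGTCA and 1 to GGGCGG. The window of Hnrnpab holds 3 matches to CCAAT, 1 to GGGCGG and 1 to TATAAA, while that of Srsf10 holds 3 matches to GGGCGG, 1 to CCAAT and 1 to CTCGCGAG. RefSeq promoters were matched for 43 of the 49 members, which have 57 promoters among 32851 in all. GGGCGG was present in 78.9% of the members' promoters and in 35.7% of all, CGGAAG in 45.6% and 16.9%, and CCAAT in 49.1% and 37.4%. TATAAA went the other way, at 8.77% of the members' promoters and 13.6% of all. The cAMP response element was found for 2 members, Clk4 and Tra2a (3.51% of the members' promoters, 1.79% of all), and CTCGCGAG for 3, Srsf10, Srsf4 and Hnrnph1 (7.02% of the members' promoters, 0.919% of all). These percentages count each window of a gene, also where windows overlap. The 2 Srsf4 windows with CTCGCGAG, for example, begin at bases 131873387 and 131873389. None of the matches shown above overlap each other, and a match is a description of the letters only.

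Splicing factor transcripts were abundant in all 4 libraries. Together the 49 members took 1.08% and 1.09% of all TPM in the Numb exon 6 libraries, against 1.06% and 1.17% in the control libraries. The mean level over the 4 libraries, on the TPM scale, was above 100 TPM for 26 members. The top and the bottom of that order, Hnrnpa2b1 and Srsf12, lay 540.1-fold apart. Hnrnpa2b1, which also reads sorting motifs in RNA, stood at 740 and 856 TPM in the Numb exon 6 libraries and at 831 and 882 TPM in the controls. Next came Srsf7, an SR protein that also serves RNA export, at 715 and 807 TPM against 723 and 876 TPM. Hnrnpk, which binds runs of C, had 765 and 687 TPM with the Numb exon 6 morpholino against 760 and 732 TPM with the control. The groups overlapped for all 3 genes, and the neighbours in this order did not differ beyond the spread between libraries. Srsf12, a little-studied SR protein, had 1.60 and 1.39 TPM against 1.39 and 1.75 TPM.

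**Figure D1:**
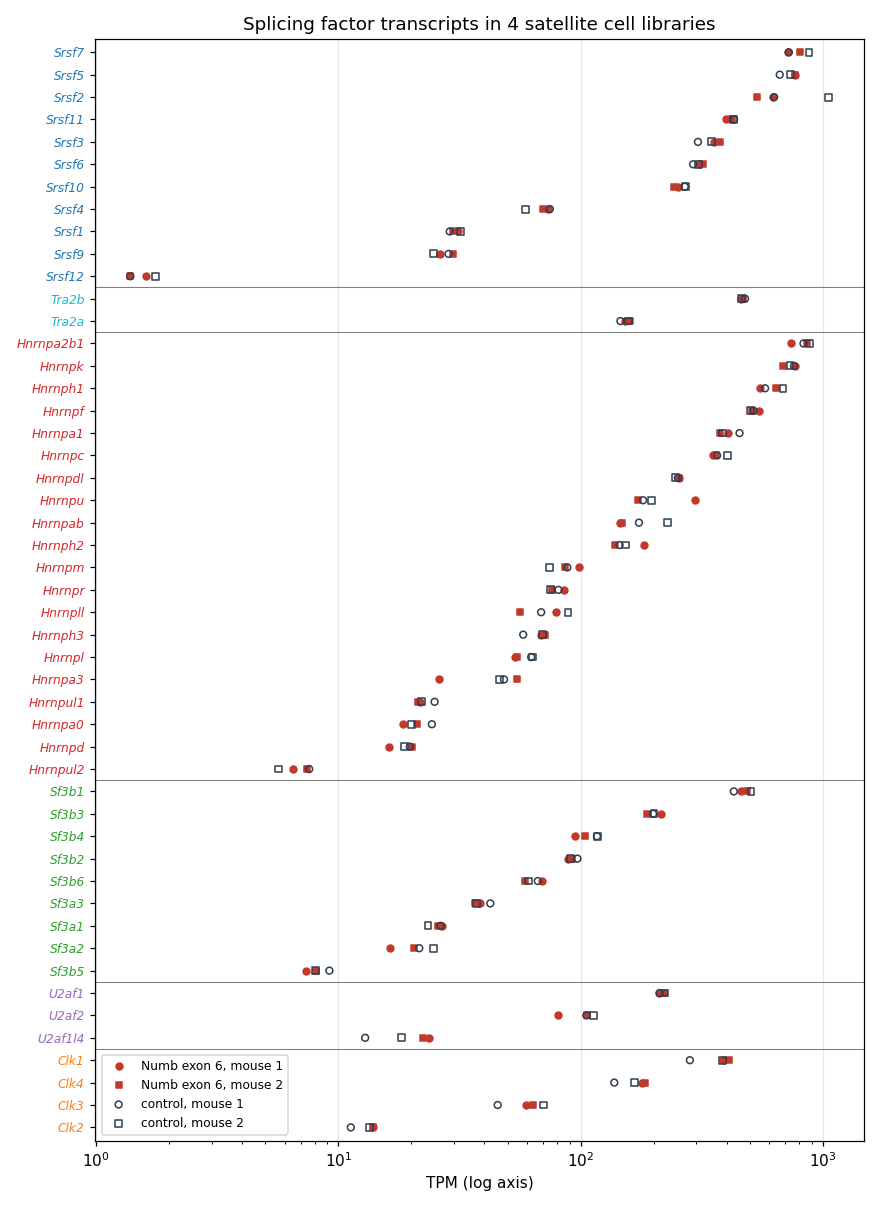
TPM of each of the 49 members in each library on a log axis, grouped by class and ordered by mean level; red filled symbols are Numb exon 6 libraries and open symbols controls, with circles for mouse 1 and squares for mouse 2. Most members hold their 4 values close together, while Srsf2, Hnrnpu, Hnrnpab, Hnrnpa3 and U2af1l4 spread by a coefficient of variation above 20%.

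Levels were steady across libraries for most members. The coefficient of variation of TPM over the 4 libraries had a median of 8.55%, and it ran up to 32.9% for Srsf2, with 5 members above 20%. It was not computed for other genes. At the steady end was Tra2b, a partner of SR proteins that binds GA-rich enhancers, with 461 and 466 TPM in the Numb exon 6 libraries and 477 and 461 TPM in the controls. Its coefficient was 1.61%, and its groups overlapped. The gap between the control libraries of the 2 mice was larger than both gaps within a mouse for 16 of the 49 members, or 32.7%, as it was for 38.2% of all 15613 genes tested on TPM.

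On counts, none of the 49 members passed the test. The edgeR quasi-likelihood test called 0 of 49 members and 0% of the 27551 genes tested at an adjusted p under 0.05, where every member had passed the filter on low counts. At an unadjusted p under 0.05 it listed 1 member, Hnrnpab (2.04% of the members, lower), beside 4.16% of all genes and 1.66% lower. With the mouse as a block, edgeR again called 0 members and 0% of genes. The unadjusted p was then under 0.05 for 5 members (10.2%, beside 6.09% of all genes): Hnrnpab, Sf3a2, Hnrnpl, Sf3b4 and Hnrnpu, all 5 lower, where 2.68% of all genes were. DESeq2 called 0 members and 0.245% of genes without the block, and 1 member and 0.674% of genes with it. The p-values rest on 2 animals and on the spread between 2 libraries per group, which the fits draw towards that of other genes. They do not show how widely more animals would vary. In log2 fold change (Numb exon 6 minus control morpholino), the members ran between -0.69 and 0.53 with a median of -0.04, against a median of 0.005 over all genes tested.

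Within each mouse, 22 of the 49 members (44.9%) were lower with the Numb exon 6 morpholino in both, against 27.3% of all genes, and 7 (14.3%) were higher in both, against 28.1%. The other 20 went opposite ways in the 2 mice, as did 44.6% of all genes. Both Numb exon 6 libraries lay below both controls for 13 members (26.5%, beside 17.1% of genes) and above both for 5 (10.2%, beside 17.4%). On TPM the balance was closer to even, with 16 members lower (32.7%) and 14 higher (28.6%) in both mice, where 23.2% of all genes were lower and 35.3% higher. The groups did not overlap on TPM for 9 members that were lower, beside 13.2% of genes, and for 8 that were higher, beside 21.8%. The limma test on log2(TPM + 1) called 0 members and 0% of genes, with 2 members at an unadjusted p under 0.05 (U2af1l4 higher and Hnrnpab lower), beside 2.91% and 1.39% of genes. With the mouse as a block it called 0 members and 0.0897% of genes, with 3 members higher and 4 lower at an unadjusted p under 0.05, beside 6.85% and 3.07% of genes. The sign of the fitted change differed between counts and TPM for 12 members, a number not taken over all genes.

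**Figure D2:**
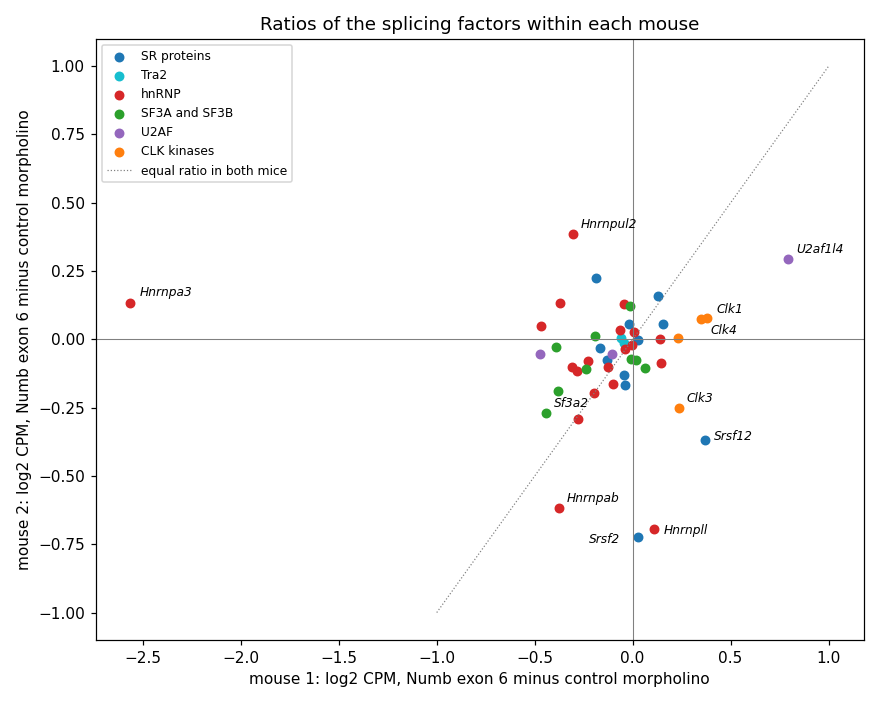
Log2 ratio of TMM-scaled CPM, Numb exon 6 minus control morpholino, in mouse 1 (horizontal axis) and mouse 2 (vertical axis) for the 49 members, coloured by class; the dotted line marks equal ratios. Most members lie near the origin, U2af1l4 lies furthest up on the right, Hnrnpab low on the left, and Hnrnpa3 far left at -2.56 in mouse 1 and 0.13 in mouse 2.

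Among the SR proteins, which act from enhancers, 2 were higher and 4 lower in both mice on counts, and their median log2 fold change was 0.01. Their summed level was 3548 and 3599 TPM in the Numb exon 6 libraries and 3444 and 4136 TPM in the control libraries, where Srsf2 alone had 1055 TPM in the control of mouse 2. Srsf5, known in rat liver as a growth-response gene, stood at 765 and 765 TPM with the Numb exon 6 morpholino against 663 and 735 TPM with the control. Both Numb exon 6 libraries lay above both controls, with a log2 fold change on counts of 0.10 ± 0.10 (SE, n = 2 per group). Srsf3, the smallest SR protein and an export adaptor, followed the same order at 355 and 375 TPM against 305 and 348 TPM, and its log2 fold change on counts was 0.14 ± 0.10 (SE). Srsf1, the prototype of the family, was at 31.2 and 29.7 TPM against 28.8 and 31.9 TPM, with overlapping groups on TPM. On counts its Numb exon 6 libraries lay below the controls, at 62.7 and 58.3 CPM against 64.6 and 65.5 CPM. The log2 fold change on counts was -0.10 ± 0.12 (SE). Srsf11, which contacts the U2 machinery, had 399 and 421 TPM with the Numb exon 6 morpholino against 430 and 427 TPM with the control. Its Numb exon 6 libraries lay below the controls by a small margin, with a log2 fold change on counts of -0.10 ± 0.10 (SE).

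Srsf2 (GRCm38 chromosome 11, 116849901 to 116853094), an SR protein that also helps release paused RNA polymerase, varied most on TPM. It stood at 622 and 536 TPM in the Numb exon 6 libraries, against 629 and 1055 TPM in the controls. The control library of mouse 2 was high and the other 3 were close together. On counts the log2 ratios of mouse 1 and mouse 2 were 0.03 and -0.72, giving a log2 fold change of -0.35 ± 0.19 (SE; edgeR adjusted p = 0.999). Of its exon bases, 15.6% are shared with Mettl23 and 9.74% with Mfsd11 on the opposite strand. Exon bases are shared with another gene by 21 members, for 17 of them with a gene on the opposite strand. The libraries do not mark the strand, so reads of overlapping genes cannot be told apart. The counts of Srsf2 and Mettl23 added together had log2 ratios of 0.07 and -0.64. The Tra2 proteins, which bind enhancers beside SR proteins, summed to 612 and 626 TPM with the Numb exon 6 morpholino against 623 and 619 TPM with the control. Their log2 fold changes on counts were -0.03 ± 0.10 for Tra2b and -0.03 ± 0.11 for Tra2a (SE).

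Of the 20 hnRNPs, 10 were lower and 1 was higher in both mice on counts, beside 27.3% and 28.1% of all genes. On that measure 6 had both Numb exon 6 libraries below both controls (17.1% of all genes did) and 0 above both (17.4%). On TPM 7 were lower and 5 higher in both mice, beside 23.2% and 35.3% of genes. There 4 lay below both controls and 1 above both, beside 13.2% and 21.8% of genes. The class had a median log2 fold change of -0.12 on counts. Their summed level was 4713 and 4616 TPM in the Numb exon 6 libraries against 4739 and 4897 TPM in the controls. Hnrnpab (GRCm38 chromosome 11, 51600100 to 51606847), a protein of the A/B type that binds RNA and DNA, had the smallest p of all members on counts. It stood at 143 and 151 CPM (counts scaled to library size by TMM) in the Numb exon 6 libraries, against 185 and 231 CPM in the controls. Both Numb exon 6 libraries were below both controls, and mouse 1 and mouse 2 gave log2 ratios of -0.38 and -0.62. Its log2 fold change on counts was -0.50 ± 0.14 (SE; edgeR adjusted p = 0.999, unadjusted p = 0.0164). With the mouse as a block it was -0.50 ± 0.10 (SE; edgeR adjusted p = 0.796, unadjusted p = 0.00412). DESeq2 with the block, chosen after seeing the data, was the single fit run that called a member, namely Hnrnpab (DESeq2 adjusted p = 0.0309). DESeq2 without the block gave an adjusted p of 0.427. On TPM the gene had 145 and 148 against 174 and 229, in the same order of groups. Phykpl, on the opposite strand, shares 29.1% of the exon bases of Hnrnpab and was itself at -0.17 ± 0.14 (log2 fold change, SE). Added together, the 2 genes had log2 ratios of -0.33 and -0.41.

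Among the most abundant hnRNPs, Hnrnph1 and Hnrnpf, which bind runs of G, had log2 fold changes on counts of -0.11 ± 0.12 and 0.02 ± 0.11 (SE). Hnrnpa1, a silencer-binding protein known as an antagonist of Srsf1, had 405 and 375 TPM with the Numb exon 6 morpholino against 453 and 387 TPM with the control. Its groups overlapped, and the log2 fold change on counts was -0.16 ± 0.13 (SE). Hnrnpc, which binds runs of U, stood at 353 and 363 TPM against 366 and 403 TPM, with the Numb exon 6 libraries below the controls and a log2 fold change on counts of -0.13 ± 0.10 (SE). Hnrnpa2b1 had a log2 fold change on counts of -0.20 ± 0.11 (SE), and its Numb exon 6 libraries lay below the controls on CPM but not on TPM. Hnrnpl, which binds CA repeats, had 34.8 and 36.5 CPM in the Numb exon 6 libraries against 42.2 and 44.7 CPM in the control libraries. The groups did not overlap and the ratios were alike, at -0.28 in mouse 1 and -0.29 in mouse 2. Its log2 fold change was -0.28 ± 0.13 (SE; edgeR adjusted p = 0.999). Its close relative Hnrnpll, chosen after its values were seen, went opposite ways in the mice, with log2 ratios of 0.11 and -0.70. Hnrnpul1, a relative of Hnrnpu, had 21.7 and 21.3 TPM with the Numb exon 6 morpholino against 25.0 and 22.0 TPM with the control, and a log2 fold change on counts of -0.21 ± 0.14 (SE). The least abundant hnRNP, Hnrnpul2, had 6.49 and 7.41 TPM against 7.58 and 5.68 TPM, and its groups overlapped.

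In the U2 particle, 5 of the 9 SF3A and SF3B subunits were lower in both mice on counts and 0 were higher. Over all genes the shares were 27.3% and 28.1%. On TPM 3 subunits were lower and 1 higher in both mice, beside 23.2% and 35.3% of genes. The subunits' median log2 fold change was -0.09 on counts and -0.05 on TPM. Their summed level was 1015 and 1022 TPM in the Numb exon 6 libraries against 1008 and 1069 TPM in the control libraries. Sf3b1, the large subunit around the branch point, was the most abundant of them at 459 and 487 TPM against 429 and 505 TPM. Its groups overlapped, with a log2 fold change on counts of -0.03 ± 0.11 (SE). Sf3a2, a zinc finger subunit of SF3A, had 17.3 and 21.8 CPM with the Numb exon 6 morpholino against 23.5 and 26.3 CPM with the control. Sf3b4, which binds RNA upstream of the branch point, had 90.0 and 99.3 CPM against 117 and 113 CPM. For both genes the Numb exon 6 libraries lay below the controls, and the log2 fold changes were -0.35 ± 0.18 and -0.28 ± 0.12 (SE). With the mouse as a block their unadjusted edgeR p values were 0.0394 and 0.0325, and both adjusted ones were 0.796. Plekhj1 on the opposite strand shares 16.1% of the exon bases of Sf3a2. Sf3b5, the smallest subunit, stood at 7.38 and 8.06 TPM against 9.19 and 8.03 TPM, with overlapping groups on TPM. On counts its Numb exon 6 libraries lay below the controls, at 14.5 and 15.7 CPM against 19.0 and 16.0 CPM. The log2 fold change on counts was -0.21 ± 0.17 (SE).

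Of the 3 U2AF subunits, 1 was higher and 2 were lower in both mice on counts. U2af1, which reads the AG at the end of the intron, had 210 and 220 TPM in the Numb exon 6 libraries against 212 and 223 TPM in the controls, and a log2 fold change on counts of -0.08 ± 0.11 (SE). U2af1l4 (GRCm38 chromosome 7, 30563301 to 30565365), an alternative small subunit that can replace U2af1, had the highest fold change of all members. The Numb exon 6 libraries held 8.36 and 8.03 CPM, against 4.82 and 6.55 CPM in the controls. Both Numb exon 6 libraries lay above both controls, with log2 ratios of 0.79 and 0.29 in mouse 1 and mouse 2, and edgeR fitted 0.53 ± 0.23 (log2 fold change, SE; adjusted p = 0.999), or 0.32 without the control library of mouse 1. It is a short gene at a low level, and 65.6% of its exon bases are shared with Gm49396 on the same strand, so the split of reads between them is uncertain. That neighbour had a log2 fold change of -0.04 ± 0.22 (SE), and the 2 genes added together had log2 ratios of 0.45 and 0.08.

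CLK kinases, which release SR proteins for splicing by phosphorylating them, summed to 639 and 671 TPM in the Numb exon 6 libraries against 477 and 635 TPM in the control libraries. On counts 3 of the 4 were higher and 0 lower in both mice, and on TPM both Numb exon 6 libraries lay above both controls for Clk1, Clk2 and Clk4, as for 21.8% of all genes. Clk1 (GRCm38 chromosome 1, 58410189 to 58424066) stood at 387 and 409 TPM with the Numb exon 6 morpholino against 282 and 384 TPM with the control. Clk4 (GRCm38 chromosome 11, 51261730 to 51281766), its closest relative, had 178 and 184 TPM against 138 and 167 TPM. For both genes the control of mouse 1 was the low library, and the controls of the 2 mice differed more than the groups did in mouse 2. Log2 fold changes on counts were 0.22 ± 0.15 for Clk1 and 0.20 ± 0.14 for Clk4 (SE, n = 2 per group), each with an edgeR adjusted p of 0.999. Without the control library of mouse 1 they were 0.06 and 0.07. The log2 ratios on counts were 0.38 and 0.08 for Clk1 and 0.35 and 0.07 for Clk4 in mouse 1 and mouse 2. With the mouse as a block, the limma test on log2(TPM + 1) gave unadjusted p values of 0.0325 and 0.0320, and adjusted ones of 0.460 and 0.458. Clk2 had 13.9 and 13.9 TPM against 11.3 and 13.5 TPM, and a log2 fold change on counts of 0.11 ± 0.18 (SE). Clk3, chosen after its values were seen, had 59.2 and 63.5 TPM against 45.5 and 70.3 TPM, with opposite signs in the mice.

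The mean length of the transcripts assigned to each gene gave a second view. For coverage-derived values the count divided by TPM follows that length, and genes with 1 annotated transcript fix the constant of each library, so that the length can be written in bases. All but 2 members have more than 1 transcript model, up to 34 with a median of 8. The length moved by less than 5% in both mice for 37 of the 49 members. The share of all genes within that limit was not computed. With libraries centred on the median ratio of all genes, the limma test on log2(count/TPM) called 0 members and 0% of the 15604 genes tested. At an unadjusted p under 0.05 it listed 3 members (ratio higher for Srsf10 and Srsf5, lower for Hnrnpa2b1), beside 2.7% of genes higher and 9.41% lower. This centring put Sf3b5 and Hnrnpa0, whose length is fixed, at a log2 change of -0.0095 each. A lower centred ratio is therefore not in itself a shorter length. That centring left 13 members higher and 18 lower in both mice, beside 15.4% and 51.4% of genes. Scaling on single-transcript genes, chosen after seeing the data, left 19 higher and 10 lower, beside 30.9% and 20.3% of genes. Sf3b5 and Hnrnpa0, the 2 members with 1 transcript model, were counted as lower under the centring and as higher under this scaling. Their length is fixed, and their fitted log2 shifts here were 6.6e-05 and 8.1e-05, so these signs hold no change of length. Genes of fixed length were counted among all genes as well. Directions of small shifts therefore depend on the scaling. The lengths in bases below use the single-transcript scaling, which also called 0 members and 0% of genes. At an unadjusted p under 0.05, 618 of the 15604 genes were longer (3.96%) and 387 shorter. Of the members, this scaling listed 3 there (Srsf10, Srsf5 and Sf3b6, all longer). With the mouse as a block it again called 0 members and 0% of genes, with 6 members longer and 3 shorter at that unadjusted p, beside 4.61% and 2.77% of genes.

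**Figure D3:**
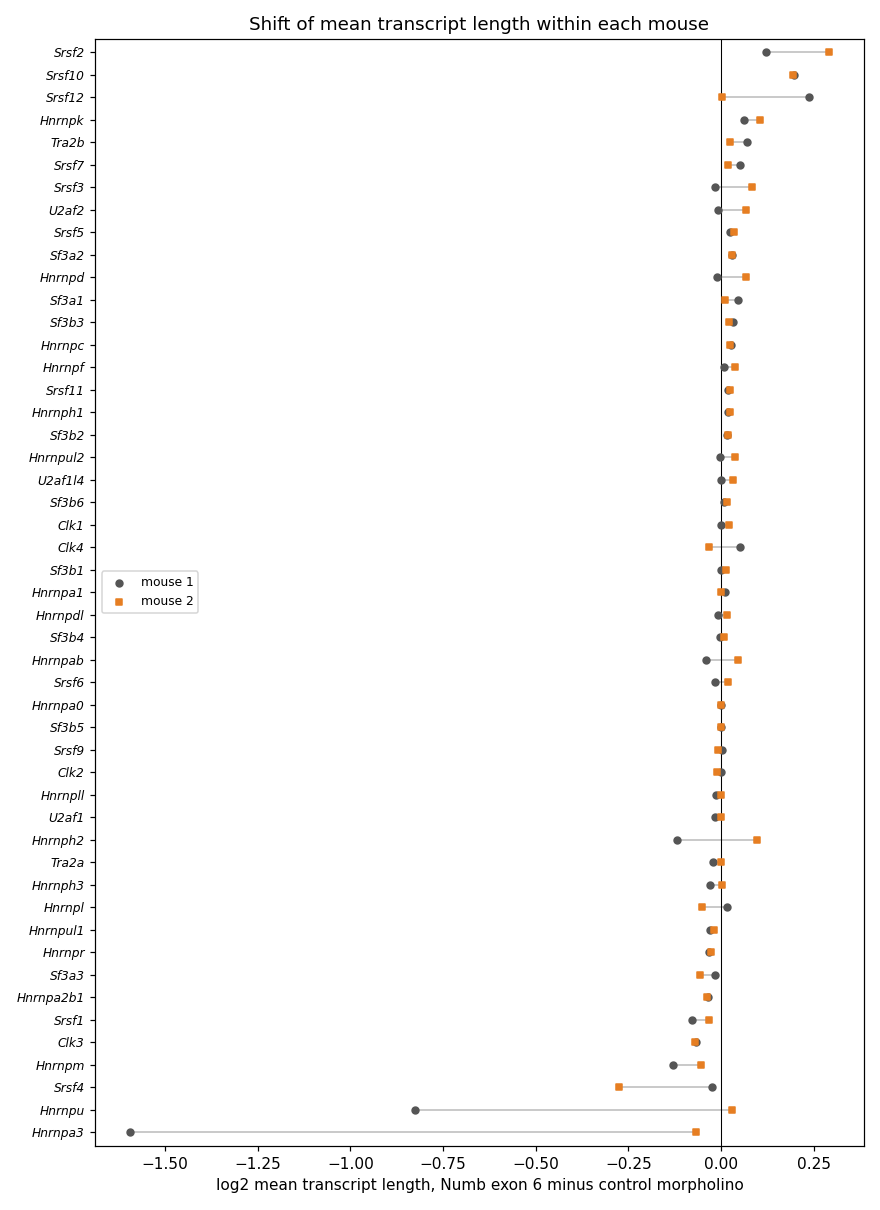
Log2 shift of mean transcript length, Numb exon 6 minus control morpholino, for each of the 49 members in mouse 1 (grey circles) and mouse 2 (orange squares), ordered by the mean shift; grey lines join the mice. Most members sit near 0, Srsf10 has both points near 0.20, and Hnrnpa3 and Hnrnpu reach -1.59 and -0.83 in mouse 1 alone.

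Srsf10 (GRCm38 chromosome 4, 135855747 to 135869908), known as a splicing repressor when it loses its phosphates, had a shift of nearly equal size in both mice. Its mean transcript length was 1921 and 1873 bases in the Numb exon 6 libraries, against 1677 and 1638 bases in the controls. Both Numb exon 6 libraries were longer than both controls, by 1.15-fold in mouse 1 and 1.14-fold in mouse 2. The log2 shift was 0.19 ± 0.02 (SE, n = 2 per group; limma unadjusted p = 0.00635, adjusted 0.5001) with single-transcript scaling. The median-centred ratio gave 0.19 ± 0.02 as well (limma adjusted p = 0.408). Its 10 transcript models run from 394 to 3754 bases, and 5 of them are as long as the control mean or longer. Counts hardly differed, with 248 and 231 CPM against 243 and 232 CPM and a log2 fold change of 0.01 ± 0.11 (SE). TPM was lower in both mice, at 252 and 243 TPM with the Numb exon 6 morpholino against 269 and 271 TPM with the control. Srsf10 was thus lower on TPM and longer in mean length, while counts gave no direction, with log2 ratios of 0.03 and -0.003 in mouse 1 and mouse 2. Which transcripts made up the shift was not analysed here, since the deposited values are per gene.

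Smaller shifts of the same sign in both mice were seen for abundant members. Srsf5 had 1754 and 1760 bases in the Numb exon 6 libraries against 1724 and 1720 bases in the controls, without overlap. Its log2 shift was 0.03 ± 0.003 (SE; limma adjusted p = 0.481). Hnrnpa2b1 had 1510 and 1486 bases against 1549 and 1524 bases, a log2 shift of -0.04 ± 0.01 (SE; limma adjusted p = 0.895). Hnrnpm, which binds GU-rich RNA, had 2323 and 2459 bases against 2544 and 2555 bases, also without overlap, and a log2 shift of -0.09 ± 0.04 (SE). March2 on the same strand shares 14.7% of its exon bases. Counts and TPM of Hnrnpm differed between the groups by less than 2 SE, with a log2 fold change on counts of 0.04 ± 0.14 (SE). Srsf2 was longer in both mice, at 1819 and 1658 bases against 1674 and 1356 bases. Its groups overlapped, and the control of mouse 2, in which its TPM was high, had the shortest mean.

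Hnrnpa3 and Hnrnpu, chosen after their values were seen, shifted in mouse 1 alone. Hnrnpa3 (GRCm38 chromosome 2, 75659261 to 75669407), an hnRNP of the A/B type, had a mean length of 1461 and 4297 bases in the Numb exon 6 libraries against 4410 and 4505 bases in the controls. The Numb exon 6 library of mouse 1 was low and the other 3 were alike. It was the only member with a shift over 2-fold in mouse 1, where 0.25% of genes had one, and no member had one in mouse 2, where 0.244% did. Of its 7 transcript models, from 596 to 5150 bases, 1 alone is as long as the control mean. That library held 19.4 CPM and its Numb exon 6 counterpart from mouse 2 held 119 CPM, against 115 and 109 CPM in the controls. On TPM the gap was smaller, with 26.0 TPM there and 54.6 TPM in mouse 2, against 48.3 and 46.3 TPM in the controls. On counts the log2 fold change was -0.69 ± 0.78 (SE; edgeR adjusted p = 0.999), and 0.10 once that library was left out.

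Hnrnpu (GRCm38 chromosome 1, 178321108 to 178337797), a scaffold protein that binds chromatin and RNA, had 2483 and 4754 bases in the Numb exon 6 libraries against 4404 and 4659 bases in the controls. Again the Numb exon 6 library of mouse 1 was low. Its TPM there was the highest of the 4, at 295 and 172 TPM in the Numb exon 6 libraries against 181 and 196 TPM in the controls. On counts it was lower in both mice instead, with 374 and 416 CPM against 429 and 476 CPM and a log2 fold change of -0.20 ± 0.12 (SE; edgeR adjusted p = 0.999). The direction of Hnrnpu in mouse 1 was therefore opposite on counts and TPM. Cox20 on the opposite strand shares 6.93% of its exon bases.

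**Figure D4:**
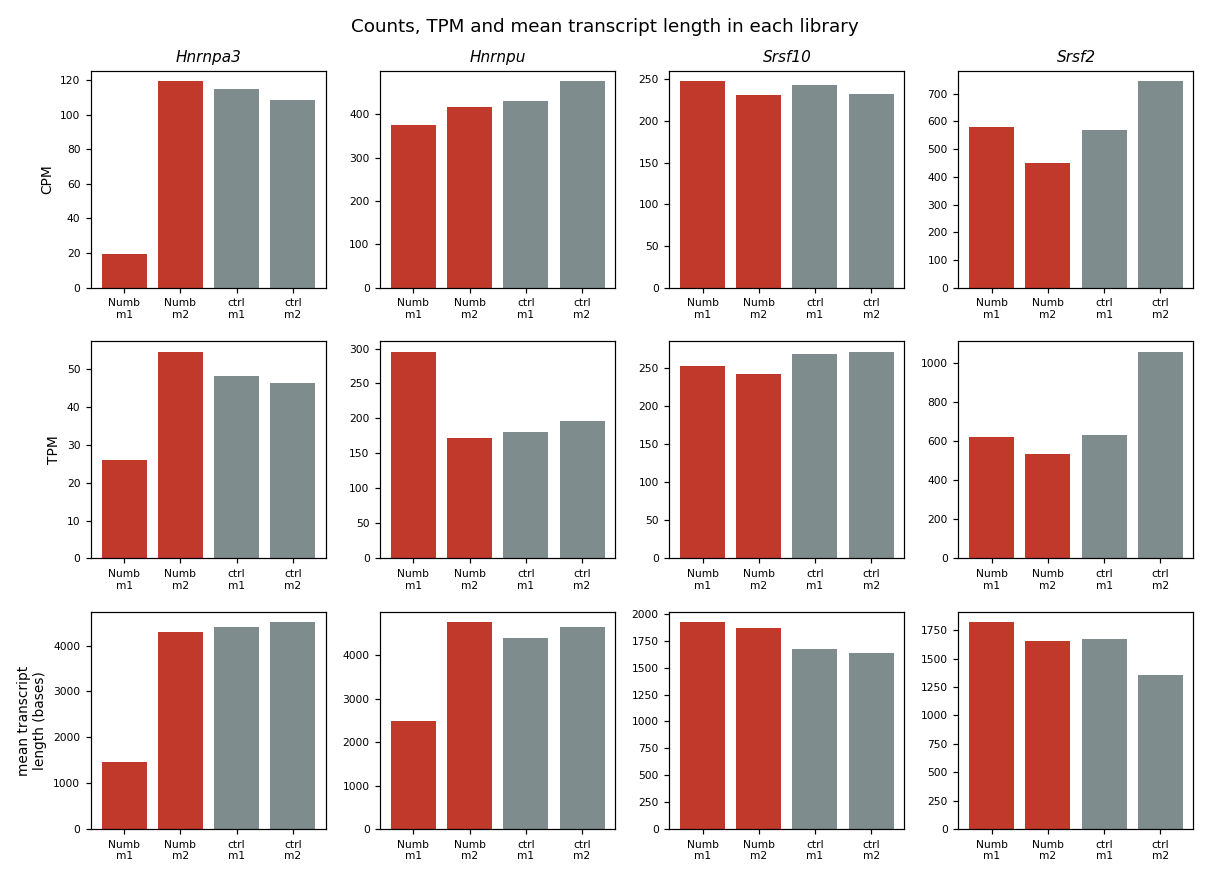
CPM (top), TPM (middle) and mean transcript length in bases (bottom) of Hnrnpa3, Hnrnpu, Srsf10 and Srsf2 in each library; red bars are Numb exon 6 and grey bars control libraries of mouse 1 (m1) and mouse 2 (m2). Hnrnpa3 has 19.4 CPM and 1461 bases with the Numb exon 6 morpholino in mouse 1, and Srsf10 has longer means in both Numb exon 6 libraries at nearly equal CPM.

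Other parts of the splicing machinery were counted in the same edgeR test, and 0 of their genes were called, beside 0% of all genes. Of the 32 proteins of the small nuclear particles, 19 were lower in both mice on counts and 3 were higher. The shares over all genes, 27.3% and 28.1%, are also the comparison for the other lists here. The log2 fold changes of the 32 proteins had a median of -0.10. Of these, Snrnp70, the U1 protein that receives SR proteins at the start of the intron, had -0.26 ± 0.11 (SE), and Snrpa1, a U2 protein, had -0.31 ± 0.14 (SE). The SR protein kinases Srpk1, Srpk2 and Srpk3, which load SR proteins with phosphate in the cytoplasm, had -0.16 ± 0.11, 0.09 ± 0.14 and 0.06 ± 0.40 (SE). Among 13 SR-related coactivators, 6 were lower and 2 higher, and the scaffold Srrm2 and the U1-associated Luc7l had -0.34 ± 0.19 and -0.27 ± 0.16 (SE). The 20 genes of the Prp19 complex and step factors had a median of -0.003, with 7 lower and 5 higher, and Prpf19 and Prpf38b had -0.42 ± 0.21 and 0.24 ± 0.11 (SE). For 23 other RNA-binding proteins of splicing the median was -0.05, with 6 lower and 5 higher. Khdrbs3, a signal-responsive splicing regulator, had 0.60 ± 0.25 (SE), and Pcbp1, which binds runs of C, had -0.37 ± 0.13 (SE; edgeR adjusted p = 0.999, unadjusted p = 0.0328). The 15 genes of nonsense-mediated decay and the exon junction complex, which clear many self-regulating splicing factor transcripts, had a median of -0.10, with 6 lower and 2 higher. Smg1, a kinase of Upf1, had -0.27 ± 0.12 (SE). Upf1, the helicase at the centre of that decay, had -0.40 ± 0.14 (SE; edgeR adjusted p = 0.999, unadjusted p = 0.0343). On TPM 13 of the 32 small nuclear particle proteins were lower and 7 higher in both mice. Over all genes these shares were 23.2% and 35.3%, so the list still leaned lower where all genes leaned higher. By that measure 3 coactivators were lower and 2 higher, and 7 and 6 of the Prp19 list. The other RNA-binding proteins had 7 and 7, and the decay list had 6 and 4.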

How the data were processed

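RNA was measured in 4 libraries of muscle stem cells, 2 with the Numb exon 6 and 2 with the control morpholino. Libraries were made by SMART-Seq2 from 5 ng of RNA each, per the labels' protocols, without marking the strand. The submitters' processing notes name HISAT2 2.1.0, StringTie 1.3.6 and the build GRCm38. Neither the annotation release nor the steps to counts are given in the sources used here. The authors' deposited expected counts are whole numbers, so rounding left them as they were. TPM, as the authors deposited it, is relative to transcript length and to the library. Low counts pile up at multiples of 4, so 1 fragment may be worth about 4 counts. Among single-transcript genes with over 500 counts, count, length and TPM agreed within 1% up to 1 constant per library for at least 99.96% of genes. Transcript models and coordinates come from the GENCODE annotation on GRCm38.

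The members and lists were chosen with earlier results of these data known. Counts were tested with edgeR 4.0.16 in R 4.3.3 (robust quasi-likelihood, TMM, default filter, no block, Benjamini-Hochberg at 0.05). TPM and count/TPM were tested with limma 3.58.1 with trend, on log2(TPM + 1) and on log2(count/TPM), for genes with a mean TPM of at least 1. DESeq2 1.42.0, other filters, scalings and pseudocounts, counts divided by 4, and removal of each library were alternatives. All fits ran over the whole table. The edgeR and DESeq2 fits without the block and the limma fit on median-centred count/TPM were run on simulated data with changes of 2-fold or more. Smaller changes, such as those fitted to the members on counts, were not simulated, nor was a difference between mice. The fits on TPM, with the block or with single-transcript scaling were not run on simulated data. Log2 ratios within a mouse use a prior count of 2. Standard errors of edgeR fits derive from the quasi-likelihood statistic.

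Same-numbered libraries come from the same mouse, so the number pairs them. After removal of group means, their deviations correlated with r = 0.401 over the 8469 genes whose mean log2 CPM reached 3, and 0.0561 over all 27551. The genes named are the 12 members highest in TPM, the 5 per direction with the smallest p on counts and on count/TPM with the same sign in both mice, and the highest and lowest of each class. Of each other list, they are the 2 with the smallest p and the same sign, plus the Srpk genes. The exact permutation test over samples was not used, since 2 against 2 libraries cannot pass 0.05. Splicing of Numb exon 6 was not analysed here.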

Additional observations from a re-analysis of the deposited data

How the results depend on the processing

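Called genes on counts numbered 0 in edgeR, against 1 with a filter of 5 CPM, 10 with no filter, 65 in DESeq2, 157 in DESeq2 with the mouse as a replicate block, and 0 to 1 without each library in turn. The edgeR replicate block called 0. Called members numbered 0 throughout except for Hnrnpab (1 member) in DESeq2 with the block. That fit and the single-transcript scaling were chosen after seeing the data. The members' median log2 fold change on counts, -0.04, was -0.0655 with the 5 CPM filter, -0.0463 with no filter, and -0.1003 to -0.0292 without each library; on TPM it was -0.0161, and -0.0221 to -0.00956 without each. Called genes on TPM numbered 0, against 14 with the block and 1 to 11 without each library. On count/TPM they numbered 0, against 1 at a mean TPM of 5, 1 with scaling on the middle 80%, and 0 to 1 without each library. Members higher in both mice numbered 7 on CPM and 14 on log2(TPM + 1) and log2(TPM + 0.1). The cause of these differences was not tested. Without each library in turn, some log2 fold changes on counts took either sign: Clk2 (-0.0292 to 0.258), Hnrnpk (-0.0416 to 0.0168), Tra2b (-0.0762 to 0.0158), Tra2a (-0.0769 to 0.0219), Hnrnpf (-0.0454 to 0.0747), Hnrnpm (-0.11 to 0.19), Hnrnpul2 (-0.21 to 0.29), Sf3b1 (-0.11 to 0.0455), Srsf7 (-0.19 to 0.0125), Srsf10 (-0.0378 to 0.0612), Srsf12 (-1.07 to 0.88), Hnrnpa3 (-2.52 to 0.10), Srpk2 (-0.0331 to 0.21), Srpk3 (-0.34 to 0.62) and Gm49396 (-0.24 to 0.17). On count/TPM Hnrnpu did so (-0.88 to 0.0612), while Srsf10 did not; of 25 other named members, 14 turned sign under at least 1 setting. Where 1 library was left in a group, it was assumed to vary like those of the other. Counts derived from coverage give no depth in fragments, so the precision at low levels is unknown.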
